A study of Mus musculus with 22 samples.

Results

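The matrix metalloproteases (Mmp), the disintegrin metalloproteases (Adam and Adamts) and 3 of their tissue inhibitors (Timp2, Timp3 and Timp4) were followed across mouse Müller glia and retinal progenitor cells. Members were all protein-coding mRNA rows whose symbol begins with Mmp, Adam or Adamts followed by a digit, plus Timp2 to Timp4. This gave 78 of the 44792 genes in the count table: 23 Mmp, 33 Adam, 19 Adamts and 3 Timp genes. All animals were C57BL/6, and Müller cells, the main glia of the retina, were sorted for green fluorescence from mice carrying an Rlbp1-GFP reporter. Young Müller cells came from untreated mice of 2 to 3 months (2 RNA libraries). NMDA Müller cells came from mice of the same age that received N-methyl-D-aspartate, an excitotoxic glutamate receptor agonist, in the vitreous 2 days before collection (3 RNA libraries). Aged Müller cells came from untreated mice of 1.5 years (2 RNA libraries), and retinal progenitor cells (RPC) from embryos at day 12.5 (3 RNA libraries). How the progenitors were purified is not stated in the labels, and no vehicle-injected group was analysed here. CpG methylation by reduced representation bisulfite sequencing (RRBS) covered the same 4 groups with 3 libraries each.

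Metzincin proteases carry a catalytic zinc ion and act outside the cell or at its surface. MMPs cut matrix proteins, growth factors and each other's pro-forms, ADAMs release the outer part of membrane proteins such as Notch, amyloid precursor protein and cytokine precursors, and ADAMTS proteases bind the matrix and cut proteoglycans, procollagens and microfibril proteins. TIMPs occupy the active site. TIMP3 stays in the matrix and also inhibits several ADAMs and ADAMTSs, and TIMP2 with MMP14 takes part in activating pro-MMP2. Müller glia span the retina, border the vitreous, and are known to release metalloproteases after injury.

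The RNA libraries held 10149390 to 36486072 counts, and values are CPM, the counts scaled to a common library total, which can be compared between libraries for 1 gene but not between genes. The young libraries stood apart: 6.35% and 5.52% of their detected genes had 1 to 9 counts, against 14.3% to 29.5% in the other 8, and they held counts for 36 and 31 members against 49 to 62 elsewhere. In all, 41 members had no count in either young library, and 28 of these had counts in another group. Another 6 members (Adamts2, Adamts9, Adamts15, Mmp9, Mmp13 and Mmp23) had 0 counts in young 2 and at least 50 in young 1, and over all genes 1602 had 0 counts in 1 of the young libraries, either one, and at least 50 in the other. For this reason aged Müller cells served as another baseline beside the young cells. NMDA and aged cells differ in both treatment and age, which cannot be told apart in that comparison. The part of young library preparation in any value of 0 was not tested. Bounds on folds against 0 young counts, given below as "at least", allow for counting error only and may overstate the difference. The summed level of 13 Müller markers was 56670 to 66549 CPM in young, 19856 to 26360 CPM in NMDA, 53818 to 54544 CPM in aged and 2470 to 2529 CPM in RPC libraries, with none of the 13 at 0 in any group. The libraries of a group are separate biological replicates per the series' design text. In bulk RNA, fewer cells of a type and less RNA per cell cannot be told apart.

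The start regions of 8 members are shown, because they belong to genes with steep differences between Müller cells and progenitors, to genes that were higher after NMDA, and to the Mmp cluster of chromosome 9. RefSeq promoters of GRCm38.p6, 250 bases before to 50 bases after the annotated start, were at hand for 48 of the 78 members. Where a gene had several listed starts, only the first was read. Both strands were searched for the TATA box (TATAAA), the AP-1 motif (TGANTCA), the GC box (GGGCGG) and a STAT-type motif (TTCNNNGAA), and capitals mark the matches, which are descriptions of letters and not binding sites. Over all 27025 gene promoters of this length, 14.2% held the TATA box, 7.93% the AP-1 motif, 35.9% the GC box and 8.47% the STAT-type motif. Among the 48 members, 13 held the TATA box, 11 the AP-1 motif, 20 the GC box and 3 the STAT-type motif. The first 3 sequences belong to genes that were high in Müller cells and low in progenitors: Timp3 (chr10:86300162-86300461, plus strand, 24 CpG), Timp2 (chr11:118355362-118355661, minus strand, 25 CpG) and Adamts1 (chr16:85803064-85803363, minus strand, 18 CpG). Each holds at least 1 GC box, and Adamts1 also a TATA box.
Timp3: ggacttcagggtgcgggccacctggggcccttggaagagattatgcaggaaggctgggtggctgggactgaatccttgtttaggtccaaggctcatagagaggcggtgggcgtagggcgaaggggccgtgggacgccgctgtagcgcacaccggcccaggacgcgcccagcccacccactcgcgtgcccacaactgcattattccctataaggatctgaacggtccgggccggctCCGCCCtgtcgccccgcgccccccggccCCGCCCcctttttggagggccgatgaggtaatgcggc
Timp2: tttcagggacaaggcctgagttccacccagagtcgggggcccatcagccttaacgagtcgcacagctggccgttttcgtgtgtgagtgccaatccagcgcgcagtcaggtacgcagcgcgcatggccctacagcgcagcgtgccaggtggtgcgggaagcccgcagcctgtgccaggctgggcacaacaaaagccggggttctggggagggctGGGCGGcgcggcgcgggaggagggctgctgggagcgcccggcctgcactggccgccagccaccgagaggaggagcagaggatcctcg
Adamts1: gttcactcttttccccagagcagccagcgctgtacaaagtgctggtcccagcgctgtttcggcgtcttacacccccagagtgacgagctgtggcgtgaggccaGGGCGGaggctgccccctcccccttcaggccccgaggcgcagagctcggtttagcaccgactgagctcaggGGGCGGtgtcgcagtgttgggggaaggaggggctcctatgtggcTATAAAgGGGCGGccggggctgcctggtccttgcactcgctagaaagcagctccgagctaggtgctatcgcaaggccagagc

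The next 5 belong to Adam8 (chr7:139992513-139992812, minus strand, 6 CpG), which was high after NMDA, and to 4 genes of the Mmp cluster of chromosome 9. That cluster holds 10 members in 427 kb (chr9:7272514-7699585), in the order Mmp13, Mmp12, Mmp1b, Mmp3, Mmp1a, Mmp10, Mmp8, Mmp27, Mmp20 and Mmp7. No promoter of the 10 holds a GC box or more than 4 CpG, 8 hold a TATA box, and 7 hold the AP-1 motif, against 4 of the 38 members elsewhere in the genome. Mmp8 (chr9:7558179-7558478, plus strand) and Mmp12 (chr9:7344147-7344446, plus strand), the cluster genes with the most counts after NMDA, are among the 3 without an AP-1 match. For Mmp12 this holds for the first of 2 listed starts, and the other was not read. Mmp13 (chr9:7272264-7272563, plus strand) and Mmp3 (chr9:7445572-7445871, plus strand) each hold 1 AP-1 match before the start and 1 TATA match nearer to it.
Adam8: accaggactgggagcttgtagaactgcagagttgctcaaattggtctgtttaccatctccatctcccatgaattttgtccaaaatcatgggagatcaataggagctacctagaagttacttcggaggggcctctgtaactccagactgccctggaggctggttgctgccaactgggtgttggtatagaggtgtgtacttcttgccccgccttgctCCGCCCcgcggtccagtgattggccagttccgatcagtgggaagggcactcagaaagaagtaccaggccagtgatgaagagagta
Mmp8: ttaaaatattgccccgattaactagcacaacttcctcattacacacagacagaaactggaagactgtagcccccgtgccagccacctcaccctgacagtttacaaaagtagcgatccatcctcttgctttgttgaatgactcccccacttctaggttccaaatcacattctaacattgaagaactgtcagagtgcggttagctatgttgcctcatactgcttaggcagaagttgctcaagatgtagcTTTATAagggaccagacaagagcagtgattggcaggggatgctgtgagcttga
Mmp12: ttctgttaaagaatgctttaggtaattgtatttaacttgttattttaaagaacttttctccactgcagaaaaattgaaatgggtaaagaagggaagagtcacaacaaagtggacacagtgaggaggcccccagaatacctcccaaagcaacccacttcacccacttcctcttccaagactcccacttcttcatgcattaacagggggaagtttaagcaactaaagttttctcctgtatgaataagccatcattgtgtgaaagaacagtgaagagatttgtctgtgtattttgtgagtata
Mmp13: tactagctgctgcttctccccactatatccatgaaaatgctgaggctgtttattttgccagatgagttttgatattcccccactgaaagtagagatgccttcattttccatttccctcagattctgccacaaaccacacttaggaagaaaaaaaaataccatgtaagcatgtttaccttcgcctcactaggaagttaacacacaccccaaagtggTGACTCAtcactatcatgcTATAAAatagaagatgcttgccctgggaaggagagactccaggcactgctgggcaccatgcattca
Mmp3: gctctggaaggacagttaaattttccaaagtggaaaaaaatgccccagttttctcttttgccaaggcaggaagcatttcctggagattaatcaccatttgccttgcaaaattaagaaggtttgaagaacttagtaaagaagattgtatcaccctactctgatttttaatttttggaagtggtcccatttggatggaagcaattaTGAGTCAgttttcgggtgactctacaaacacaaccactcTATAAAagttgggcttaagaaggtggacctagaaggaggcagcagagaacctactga

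Of the 78 members, 13 had no count in any of the 10 libraries, among them the collagenase genes Mmp1a and Mmp1b, Mmp10, the enamel protease gene Mmp20 and the von Willebrand factor protease gene Adamts13. Of the remaining 65, 49 passed the filter on low counts and were tested, and 16 had counts but were not tested. The highest of these 16 were Mmp13, at 6.51 CPM in young 1 and at most 0.0904 CPM in every other library, and Mmp25, at 1.51 CPM in NMDA 2. The 21 Adam genes known mainly from testis were largely silent: 8 had no count anywhere and 5 (Adam1a, Adam4, Adam5, Adam21 and Adam32) were tested. The 7 members above 100 CPM in every Müller library were Timp2, Timp3, Mmp14, Adam22, Adam23, Adamts1 and Adamts5. Only Mmp14 did so in every RPC library. The 78 members summed to 3634 to 4754 CPM in the Müller libraries and to 947 to 1006 CPM in the RPC libraries. Timp2 and Timp3 made up 28.1% to 37.3% of the sum in the former and 4.15% to 5.04% in the latter. These are shares of counts and not of RNA molecules.

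**Figure D1:**
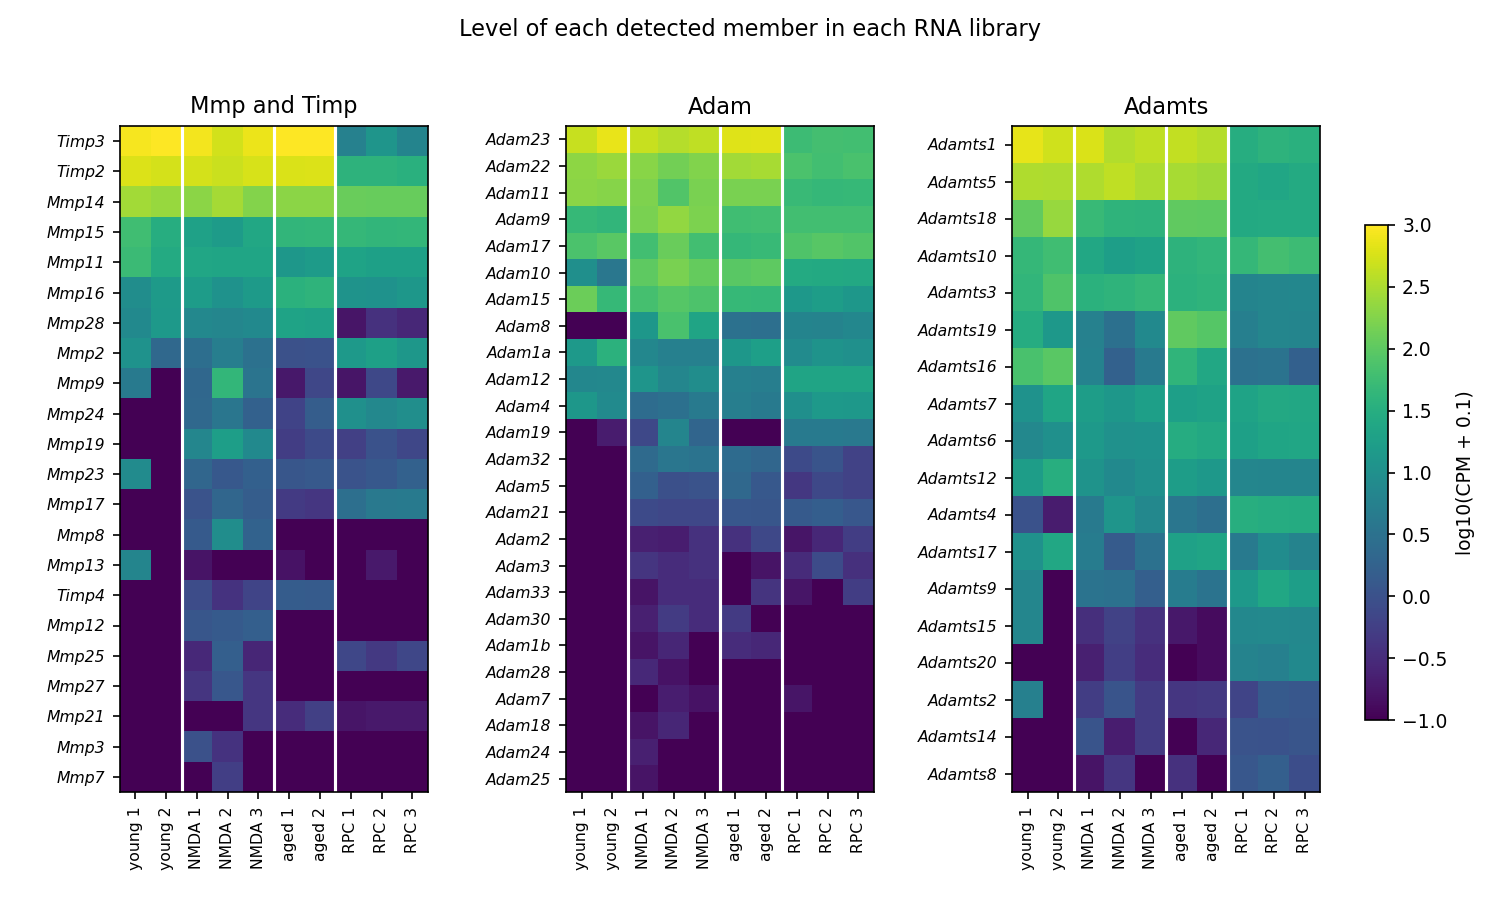
Level of the 65 members with at least 1 count in each of the 10 RNA libraries, as log10(CPM + 0.1), sorted by mean level within each of 3 panels; white lines separate young, NMDA, aged and RPC libraries. The brightest rows (Timp3, Timp2, Adamts1, Adamts5, Adam23) dim in the 3 RPC columns, and the 2 young columns hold many members at 0.

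Progenitors differed from Müller cells by a low level of the inhibitors and of the highly counted proteases. Against young Müller cells, 15 of 49 tested members were higher in RPC and 18 lower at adjusted p under 0.05, in shares of all tested genes of 35.9% higher and 24.9% lower. Against aged Müller cells 8 were higher and 22 lower, where 26.3% and 29% of all genes were called. The members' median log2 change was -0.06 against young (0.30 over all genes) and -0.29 against aged cells (0.02 over all genes). Both comparisons use the same 3 RPC libraries. Called members did not overlap between libraries in either comparison, and the share of this over all called genes was not counted.

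All inhibitors in the list were low in progenitors. Timp3, the matrix-bound inhibitor, was at 871 and 1029 CPM in young, 852, 542 and 777 CPM in NMDA, 969 and 1037 CPM in aged, and 5.58, 12.2 and 6.38 CPM in RPC libraries. Every Müller library thus lay far above every RPC library, and the log2 change was -7.03 ± 0.34 (SE) against young (adjusted p = 6.3e-07) and -7.30 ± 0.35 against aged cells. Timp2, the inhibitor that also docks pro-MMP2, was at 625 and 561 CPM in young, 548, 480 and 570 CPM in NMDA, 591 and 605 CPM in aged, and 38.2, 38.5 and 34.1 CPM in RPC libraries. It fell by 4.14 ± 0.12 on the log2 scale from young to RPC (adjusted p = 9.2e-08), with no overlap. Timp4 had no count in young or RPC libraries and was low where it was counted, at 0.756, 0.281 and 0.557 CPM in NMDA and 1.37 and 1.29 CPM in aged libraries. RPC was thus at least 16.5-fold lower than aged cells, taking 3 counts over the pooled RPC libraries as the floor. In the annotation Timp3 overlaps Syn3, Timp4 overlaps Syn2 and Timp2 overlaps Cep295nl. The same holds for 10 other members, among them Adam17 (Iah1), Mmp19 (Tmem198b) and Mmp24 (BC029722). The strand setting of the counting is not given in the sources used here, so reads of such pairs cannot be told apart.

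The proteoglycan-cutting ADAMTS genes split between the cell types. Adamts1 was at 713 and 516 CPM in young, 590, 352 and 411 CPM in NMDA, 434 and 358 CPM in aged, and 31.2, 38.2 and 34.3 CPM in RPC libraries. Its neighbour Adamts5, 55 kb away on chromosome 16 and an aggrecan-cutting protease, was at 332 and 327 CPM in young, 338, 410 and 325 CPM in NMDA, 301 and 273 CPM in aged, and 26.7, 22.9 and 27.8 CPM in RPC libraries. Both were thus lower in every RPC library than in any Müller library, by -4.29 ± 0.24 (adjusted p = 1.4e-06) and -3.81 ± 0.14 (adjusted p = 2.1e-07) against young on the log2 scale. Adamts4, the other well-known aggrecanase, ran the opposite way, at 0.921 and 0.0985 CPM in young, 4.29, 12 and 7.29 CPM in NMDA, 3.67 and 2.80 CPM in aged, and 31.6, 29.4 and 28.6 CPM in RPC libraries. It was higher in RPC than in aged cells by 2.88 ± 0.68 (adjusted p = 0.0062), though not when aged 2 was left out. Adamts20, a versican-cutting protease known for its part in pigment cell migration, had 0 counts in young and 1 count in aged cells and was at 6.13, 5.42 and 7.95 CPM in RPC libraries, at least 54.8-fold above young and 452-fold above aged (95% counting interval 80.3 to 17916). Adamts15 was at 7.16, 7.59 and 7.25 CPM in RPC against 0.0822 and 0.0301 CPM in aged libraries, but at 6.78 and 0 CPM in the 2 young ones. Adamts9, which cuts versican and aggrecan, did not pass in any comparison: it was at 6.64 and 0 CPM in young, 3.21, 3.03 and 1.50 CPM in NMDA, 4.69 and 3.22 CPM in aged and 14.2, 24.4 and 17.7 CPM in RPC libraries.

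Members of the neural ADAM group, which lack the catalytic motif and act as adhesion or LGI-binding proteins, were all lower in progenitors. Adam23 was at 457 and 738 CPM in young, 455, 353.3 and 412 CPM in NMDA, 648 and 663 CPM in aged, and 54.3, 63.5 and 62.0 CPM in RPC libraries (-3.45 ± 0.19 against young, adjusted p = 1.2e-06). Adam22 was at 211 and 250 CPM in young, 198, 140 and 174 CPM in NMDA, 277 and 297 CPM in aged, and 73.9, 60.9 and 71.7 CPM in RPC libraries (-1.87 ± 0.16, adjusted p = 1.5e-05). Adam11 fell by 2.16 ± 0.26, and for all 3 genes the RPC libraries lay below every Müller library. Among ADAMs with a zinc-binding motif, Adam15 fell by 2.73 ± 0.36 from young to RPC while Adam12, a protease of growing muscle and bone, rose by 1.46 ± 0.31, from 6.97 and 7.19 CPM in young to 21.3, 21.4 and 21.2 CPM in RPC libraries. Adam19, known from heart valve and neural crest development, was at 4.27, 4.34 and 4.11 CPM in RPC, had 1 count in young and 0 in aged cells, and was at least 98.5-fold higher in RPC than in aged cells.

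Among the MMPs, the membrane-type group showed both directions. Mmp14, the main activator of pro-MMP2, was at 283 and 241 CPM in young, 202, 285 and 180 CPM in NMDA, 205 and 201 CPM in aged, and 123, 118 and 119 CPM in RPC libraries (-1.25 ± 0.18 against young, adjusted p = 0.00039). This was a far smaller step than for the inhibitors Timp2 and Timp3 in the same libraries. Mmp24, a neural membrane-type MMP, had 0 counts in young, and was at 2.14, 3.59 and 1.67 CPM in NMDA, 0.548 and 1.42 CPM in aged, and 10.3, 7.23 and 9.35 CPM in RPC libraries (2.87 ± 0.65 against aged, adjusted p = 0.0068). Mmp17 followed it, with 0 counts in young, 0.945, 2.02 and 1.39 CPM in NMDA, 0.384 and 0.331 CPM in aged, and 2.75, 4.07 and 4.19 CPM in RPC libraries. Both were higher in RPC than in aged cells without overlap. The secreted gelatinase gene Mmp2 was at 10.7 and 2.17 CPM in young, 2.65, 5.11 and 3.01 CPM in NMDA, 0.877 and 0.933 CPM in aged, and 14.0, 18.9 and 12.9 CPM in RPC libraries, which passed against aged (3.75 ± 0.73, adjusted p = 0.0024) but not against young (1.09 ± 0.64, adjusted p = 0.17). Mmp28, the secreted MMP epilysin, had the largest fitted fall of the 13 tested MMPs: 7.83 and 14.5 CPM in young, 7.31, 6.84 and 7.90 CPM in NMDA, 21.1 and 19.6 CPM in aged, and 0.0689, 0.271 and 0.175 CPM in RPC libraries (-6.14 ± 0.50 against young, adjusted p = 1.2e-05). Summed markers of other cells also differed between the cell types: 12 photoreceptor markers summed to 5580 to 14753 CPM in Müller and 28.9 to 37.8 CPM in RPC libraries (4 of 12 at 0 in RPC). The 11 endothelial and pericyte markers summed to 2882 to 4167 CPM and 250 to 259 CPM (7 of 11 at 0 in young cells, Pecam1 and Cdh5 among them). Singly, 6 of these 11 were higher and 3 lower in RPC than in young cells (35.9% and 24.9% of all genes). Against aged cells 0 were higher and 4 lower (26.3% and 29% of all genes). The 10 immediate early and dissociation markers summed to 2834 to 8753 CPM in Müller and 102 to 118 CPM in RPC libraries, with none at 0 in any group. The 5 astrocyte markers summed to 214 to 1558 CPM and 18.3 to 28.4 CPM (S100b at 0 in RPC). In RPC libraries 8 neutrophil and blood markers summed to 247 to 1645 CPM. The part of these cells and markers in the differences was not tested.

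**Figure D2:**
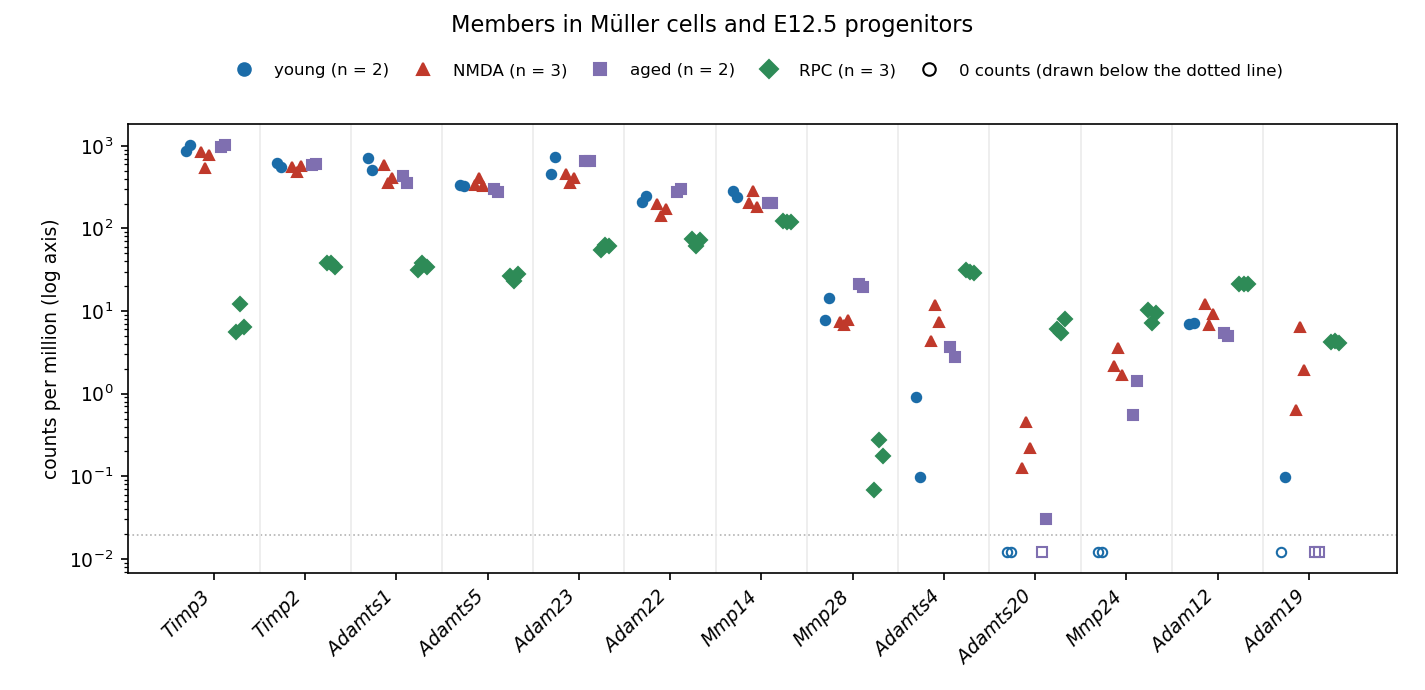
CPM on a log axis for 13 members in each RNA library of the 4 groups; open symbols below the dotted line are libraries with 0 counts. Timp3, Timp2, Adamts1, Adamts5, Adam23, Adam22, Mmp14 and Mmp28 have all RPC symbols below all Müller symbols, while Adamts4, Adamts20, Mmp24 and Adam12 have them above.

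After NMDA the inhibitors Timp2 and Timp3 and the highly counted proteases Mmp14, Adamts1 and Adamts5 did not pass the test against young cells. Of the tested members, 7 of 15 Adam genes were higher and 2 lower, 5 of 13 Mmp genes were higher and 2 lower, and 2 of 18 Adamts genes were higher and 6 lower than in young cells. Against young Müller cells, 15 of 49 members were higher and 10 lower (30.6% and 14.3% of all tested genes), and the members' share called higher, 30.6%, equalled that of all genes. Against aged Müller cells, 7 were higher and 12 lower (10.5% and 9.8% of all tested genes). The higher members in both comparisons include Mmp8 and Mmp12, which had counts only in NMDA libraries and so could be called only higher. The members' median log2 change was -0.05 against young (0.26 over all genes) and 0.05 against aged cells (0.04 over all genes). Called members did not overlap between the groups, and here too the share over all called genes was not counted. The aged comparison rested on both aged libraries: without either, fewer members were called in both directions, and so were fewer of all genes. Timp2 changed by -0.05 ± 0.11 and Timp3 by -0.28 ± 0.28 against young, and neither passed against aged cells.

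Adam9, a widely expressed sheddase, was at 47.1 and 43.3 CPM in young, 160, 227 and 164 CPM in NMDA, 59.5 and 60.6 CPM in aged, and 60.8, 60.9 and 62.0 CPM in RPC libraries. All NMDA libraries were above all others, and Adam9 rose by 2.13 ± 0.17 against young (adjusted p = 4.1e-05) and by 1.53 ± 0.16 against aged cells (adjusted p = 0.0006), under every left-out library. Adam10, the main sheddase of Notch and of amyloid precursor protein, was at 9.80 and 3.74 CPM in young, 103, 157 and 114 CPM in NMDA, 94.9 and 103 CPM in aged, and 28.2, 26.7 and 26.0 CPM in RPC libraries. It was the young libraries that were low here: NMDA differed from young by 4.27 ± 0.40 and aged from young by 4.02 ± 0.40, whereas NMDA differed from aged by 0.25 ± 0.32 (adjusted p = 0.64). Adam17, the tumour necrosis factor converting enzyme, was at 73.2 and 94.9 CPM in young, 60.4, 122 and 60.8 CPM in NMDA, 45.5 and 49.0 CPM in aged, and 79.5, 91.3 and 82.8 CPM in RPC libraries, and passed in none of the 5 comparisons. It shares its locus with Iah1.

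Another set was near or at 0 in untreated Müller cells and, apart from Mmp12, varied widely among the NMDA libraries. Adam8, a sheddase known from leukocytes and activated glia, had 0 counts in young and was at 12.9, 72.0 and 21.3 CPM in NMDA, 2.96 and 2.83 CPM in aged, and 6.2, 5.96 and 6.99 CPM in RPC libraries. NMDA was 3.53 ± 0.76 (log2) above aged cells (adjusted p = 0.016). Against young the counting bound was at least 306-fold, which takes the 0 counts of the young libraries at face value. Mmp19, a secreted MMP of basement membrane substrates, had 0 counts in young and was at 6.68, 17.4 and 7.90 CPM in NMDA, 0.439 and 0.692 CPM in aged, and 0.482, 0.904 and 0.612 CPM in RPC libraries (at least 91.3-fold above young; 4.14 ± 0.69 above aged, adjusted p = 0.0061). For both genes all NMDA libraries exceeded all others, and NMDA 2 was the highest. The neutrophil collagenase gene Mmp8 was counted only in NMDA libraries, at 1.26, 8.98 and 1.73 CPM, as was the macrophage elastase gene Mmp12, at 1.07, 1.23 and 1.50 CPM. Pooled over the NMDA libraries these were at least 34.5-fold and 10.8-fold above young and 94.9-fold and 29.7-fold above aged cells. The Mmp12 calls were lost in DESeq2. With no count elsewhere, Mmp8 and Mmp12 passed the filter on low counts only through the NMDA libraries, so the direction of their calls was fixed in advance. The calls of Adam8, Mmp8, Mmp12, Mmp19 and Adam19 against aged cells were each lost without aged 1 or aged 2, and that of Mmp8 also without NMDA 1 or NMDA 3. Adam19 was at 0.630, 6.40 and 1.95 CPM in NMDA libraries against 1 count in young and 0 in aged cells. Mmp9, the other gelatinase, was at 4.21 and 0 CPM in young, 2.08, 44.6 and 3.34 CPM in NMDA, 0.0822 and 0.602 CPM in aged, and 0.0689, 0.632 and 0.0874 CPM in RPC libraries, and passed against neither baseline.

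Transcripts of microglia and macrophages differed among the NMDA libraries in the same order as several of these genes, though not Mmp12. The summed level of 16 microglia and macrophage markers was 430, 4813 and 949 CPM in the NMDA libraries. It was 13.3 and 107 CPM in young, 116 and 136 CPM in aged and 69.0 to 86.5 CPM in RPC libraries. The order of the NMDA libraries was that of Adam8, Adam9, Adam10, Adam19, Mmp8, Mmp9 and Mmp19. Other members, among them Adamts4, Adam17, Adam32, Mmp2 and Mmp17, had the same order, and its share over all genes was not counted. In NMDA cells none of the 16 was at 0, while 3 were at 0 in young cells. NMDA 2 also held 1111 CPM of 8 lens markers, against 40.0 and 59.7 CPM in the other NMDA libraries, and 48.7 CPM of neutrophil and blood markers, against 4.73 and 2.78 CPM. The 5 astrocyte markers summed to 1281 to 1558 CPM in NMDA against 214 to 248 CPM in young (Pax2 at 0) and 230 to 289 CPM in aged libraries. The part of these cells in the higher levels of those genes was not tested. Without NMDA 2 the pooled level remained 17.3 CPM for Adam8 (5.99 times aged, at least 147-fold above young), 7.33 CPM for Mmp19 (13.1 times aged, at least 61.9-fold above young), 1.51 CPM for Mmp8 (at least 35.0-fold above aged) and 1.33 CPM for Adam19 (at least 30.9-fold above aged). Likewise, without NMDA 2 Adam9 was at 162 CPM (2.70 times aged) and Mmp12 at 1.30 CPM, while Mmp9 was at 2.75 CPM, 8.33 times aged and 1.09 times young. NMDA 1 and NMDA 3 still held 430 and 949 CPM of the microglia and macrophage markers. Leaving out NMDA 2 therefore does not separate the cell sources of these transcripts.

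Of the 10 members that fell after NMDA against young cells, 6 were ADAMTS genes outside the proteoglycanase and procollagen groups. Of the 8 tested genes of this kind, 6 were lower in NMDA than in young cells (Adamts10, 12, 16, 17, 18 and 19). Likewise 6 were lower in NMDA than in aged cells (Adamts6, 10, 16, 17, 18 and 19). Of all genes, 14.3% and 9.8% were lower. Adamts6 was not lower than in young cells: without NMDA 2 its pooled level was 1.48 times young and 0.436 times aged. The summed level of 13 Müller markers was lower in the same libraries, at 19856 to 26360 CPM in NMDA against 53818 to 66549 CPM in young and aged libraries. NMDA 2 had the lowest sum, as for Adamts16, 17 and 19. Singly, 5 of the 13 were lower and 1 higher than in young cells (14.3% and 30.6% of all genes). Against aged cells 7 were lower and 1 higher (9.8% and 10.5% of all genes). The part of these markers in the ADAMTS falls was not tested. Adamts16, known from kidney and gonad, was at 71.3 and 94.2 CPM in young, 5.73, 1.63 and 4.29 CPM in NMDA, 40.9 and 24.5 CPM in aged, and 3.03, 3.25 and 1.57 CPM in RPC libraries. All NMDA and RPC libraries were below all young and aged libraries, with a log2 change of -4.31 ± 0.51 against young (adjusted p = 0.00032) and -3.16 ± 0.49 against aged cells (adjusted p = 0.0032). Adamts18, a gene linked to eye development, was at 109 and 240 CPM in young, 49.2, 39.3 and 38.4 CPM in NMDA, 106 and 102 CPM in aged, and 26.4, 27.7 and 28.1 CPM in RPC libraries (-1.93 ± 0.27 against young, adjusted p = 0.00069). Adamts17, linked to lens anchoring and microfibrils, was at 10.4 and 24.6 CPM in young, 4.6, 1.29 and 3.01 CPM in NMDA, 19 and 21.3 CPM in aged, and 4.41, 8.76 and 6.03 CPM in RPC libraries (-2.45 ± 0.56, adjusted p = 0.0075). For both, all NMDA libraries were below all young and aged libraries. Adamts19 was at 30.4 and 13.6 CPM in young, 5.55, 2.92 and 7.79 CPM in NMDA, 107 and 88.9 CPM in aged, and 5.23, 6.69 and 6.47 CPM in RPC libraries (-1.92 ± 0.42 against young, -4.25 ± 0.44 against aged). Adam1a, a sperm-protein gene, was at 13.9 and 36.9 CPM in young, 7.12, 5.33 and 5.40 CPM in NMDA, 13.1 and 17.7 CPM in aged and 8.54, 11.2 and 9.96 CPM in RPC libraries, and Adam4 fell by 1.6 ± 0.39 against young.

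Among the MMPs, Mmp15 and Mmp11 fell against young cells. Mmp15, the 1 of 5 tested membrane-type genes that fell while Mmp17 and Mmp24 were higher, was at 58.9 and 31.4 CPM in young, 19.3, 15.3 and 25.2 CPM in NMDA, 42.3 and 44.7 CPM in aged, and 46.1, 43.2 and 43.8 CPM in RPC libraries (-1.08 ± 0.28 against young, adjusted p = 0.014; lost without young 1). NMDA libraries were the lowest of the 4 groups for this gene. Mmp11, stromelysin 3, was at 53.1 and 27.6 CPM in young, 23.0, 22.3 and 22.2 CPM in NMDA, 13 and 15.5 CPM in aged, and 20.5, 19 and 18.7 CPM in RPC libraries; its fall after NMDA (-0.74 ± 0.26, adjusted p = 0.047) was lost without young 1 or any of the 3 NMDA libraries. Mmp14 changed by -0.13 ± 0.18 and Adamts5 by 0.23 ± 0.14 against young, neither passing.

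**Figure D3:**
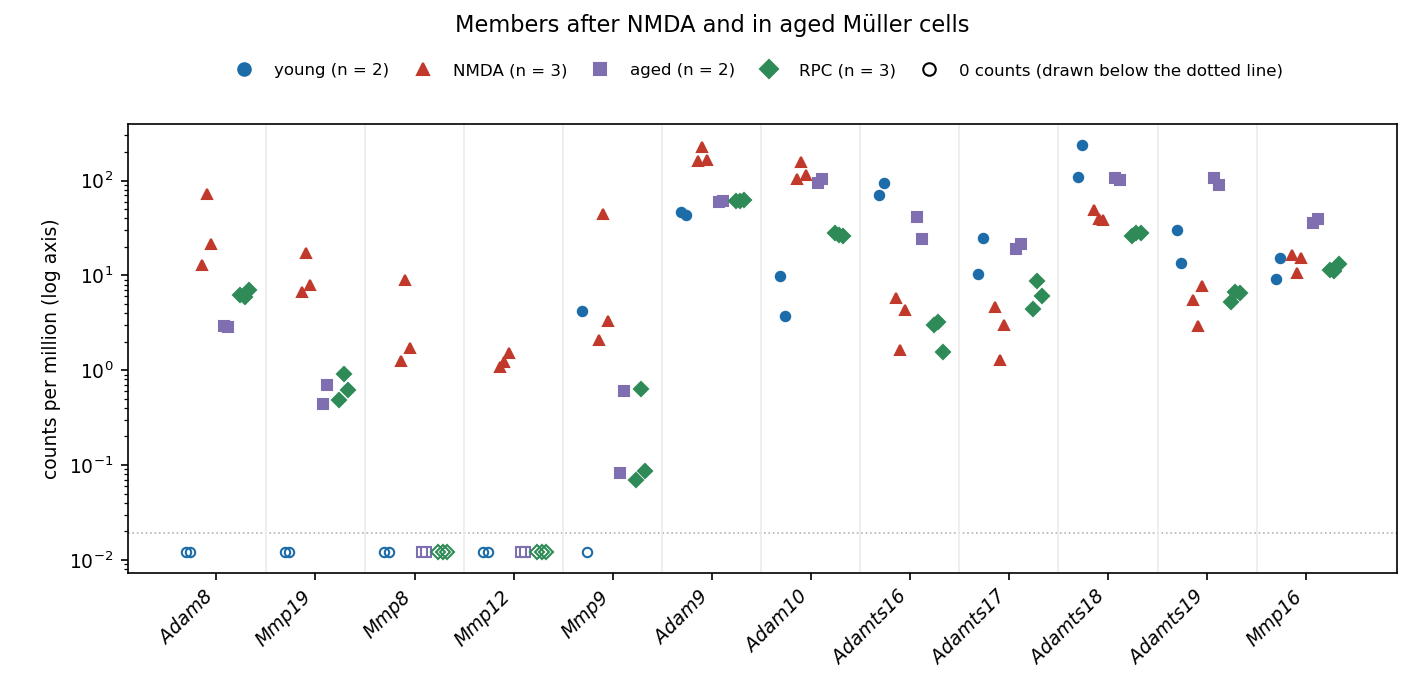
CPM on a log axis for 12 members in each RNA library; open symbols below the dotted line are libraries with 0 counts. Adam8, Mmp19, Mmp8, Mmp12 and Adam9 have the NMDA triangles on top, Adamts16 to Adamts18 have them below the young and aged symbols, and Adamts19 and Mmp16 have the aged squares on top.

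In aged Müller cells 14 of 49 members were higher than in young cells and 3 lower, where 21.1% and 5.85% of all tested genes were called, with a median log2 change of 0.20 (0.13 over all genes). When the 2 groups were fitted alone, no member passed in either direction, and of all 16662 genes then tested only 322 were higher and 19 lower. Of the 14, 8 (Adam5, Adam8, Adam21, Adam32, Mmp17, Mmp19, Mmp24 and Timp4) had 0 counts in both young libraries, so that the comparison turns on the young floor: Adam32 was at 2.44 and 1.99 CPM, Adam5 at 2.14 and 1.14 CPM and Adam21 at 1.12 and 1.08 CPM in aged libraries. These 3 were also counted in all NMDA libraries, at 2.33, 3.65 and 3.28 CPM for Adam32, 1.58, 0.842 and 0.946 CPM for Adam5 and 0.693, 0.617 and 0.612 CPM for Adam21. The members higher in aged cells with counts in both young libraries were Adamts19, Adamts6, Mmp16, Adam9, Adam10 and Adamts4.

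Adamts19 rose by 2.33 ± 0.48 (adjusted p = 0.0078) and was higher in both aged libraries than in all 8 others. Adamts6, linked to microfibrils, rose from 7.17 and 9.95 CPM to 30.4 and 25.8 CPM (1.91 ± 0.26, adjusted p = 0.0012). Mmp16, a membrane-type MMP able to activate pro-MMP2, was at 9.08 and 15.3 CPM in young, 16.3, 10.7 and 15.1 CPM in NMDA, 36.1 and 39.5 CPM in aged, and 11.4, 11 and 13.1 CPM in RPC libraries (1.83 ± 0.31, adjusted p = 0.0032). For these 3 genes the aged libraries were the highest of all 10, and each rise passed under every left-out library. Adam9 rose by 0.60 ± 0.17, from 47.1 and 43.3 CPM to 59.5 and 60.6 CPM, a call lost without young 2 or either aged library. Of the 3 lower members, Mmp2 changed by -2.65 ± 0.73 (adjusted p = 0.027; lost without young 1 or either aged library), Mmp11 by -1.32 ± 0.30 (lost without aged 1), and Adamts15 by -5.59 ± 1.75 with overlapping libraries. All 103 young counts of Adamts15 were in young 1, and young 2 had 0. The count of lower members rose without either young library and fell without either aged library, as did the count of lower genes over all genes.

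**Figure D4:**
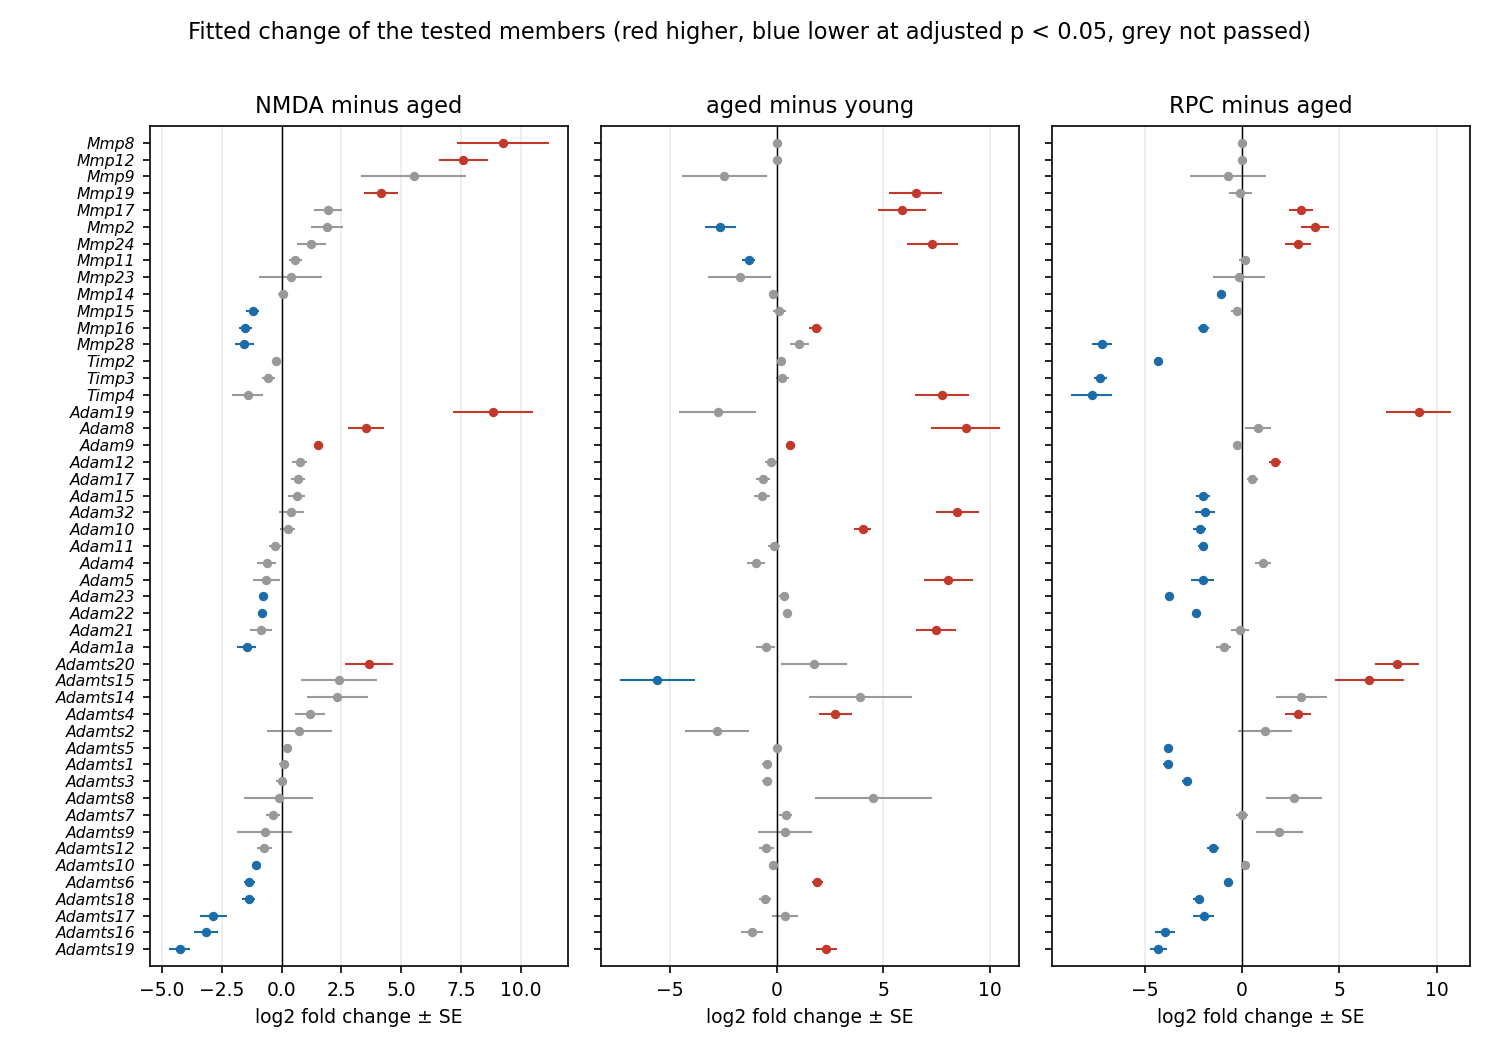
Fitted log2 fold change with its standard error for the 49 tested members in NMDA minus aged, aged minus young and RPC minus aged; red and blue mark members called higher and lower, grey those that did not pass, Mmp8 and Mmp12 are drawn at 0 where both groups had no count, and fitted changes against a group at 0 counts are no measure of size. The panels share the aged libraries; the Adamts16 to Adamts19 rows lie at -1.38 to -4.25 in the NMDA panel, and Timp3 at -7.30 in the RPC panel.

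Other genes of the pathway, from a list of 31 regulators of zinc proteases (inhibitors, ADAMTS-like proteins, activating convertases, tetraspanins and related proteases), were all tested. After NMDA 11 were higher and 7 lower than in young cells (30.6% and 14.3% of all genes), and 3 were higher and 9 lower than in aged cells (10.5% and 9.8% of all genes). Timp1, the inducible inhibitor that the member rule leaves out, had 0 counts in young and was at 49.7, 61.1 and 29.7 CPM in NMDA, 1.56 and 0.211 CPM in aged, and 1.86, 2.08 and 1.66 CPM in RPC libraries (5.62 ± 0.84 against aged, adjusted p = 0.0039). Reck, a membrane-anchored MMP inhibitor, was at 336 and 394 CPM in young, 92.9, 51.4 and 83.8 CPM in NMDA, 304 and 305 CPM in aged, and 52.2, 61.4 and 56.2 CPM in RPC libraries (-2.16 ± 0.21 against young, -2.09 ± 0.21 against aged). NMDA libraries were thus the highest of all for Timp1, and for Reck lower than every young and aged library. Bmp1, the procollagen C-proteinase, rose by 2.46 ± 0.16 against young and 2.76 ± 0.16 against aged cells, and Adamtsl4, a lens-anchoring microfibril protein, rose by 2.76 ± 0.31 against aged. Papln, a proteoglycan-like ADAMTS relative, fell by 1.97 ± 0.27 against young. Ece1, endothelin-converting enzyme, was at 9.89 ± 0.22 CPM (SD, n = 2) in young and 93 to 177 CPM in NMDA and aged libraries.

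In aged cells 11 of the 31 regulators were higher and 0 lower than in young cells (21.1% and 5.85% of all genes), led by Ece1 (4.24 ± 0.16) and Adamtsl1 (3.63 ± 0.49). In progenitors 8 were higher and 17 lower than in young (35.9% and 24.9% of all genes), and 2 higher and 18 lower than in aged cells (26.3% and 29% of all genes). Bsg, the MMP inducer basigin, fell by 3.35 ± 0.14, Tspan5, which escorts ADAM10, by 2.79 ± 0.08 and Papln by 7.58 ± 0.36 against young. Of 37 matrix and shed substrates, 31 were tested. After NMDA 14 were higher and 6 lower than in young cells (30.6% and 14.3% of all genes). Against aged cells 5 were higher and 5 lower in NMDA (10.5% and 9.8% of all genes). Some substrates, Vcan and Tnc among them, had 0 young counts. In RPC 10 were higher and 15 lower than in young cells (35.9% and 24.9% of all genes). Against aged cells 6 were higher and 18 lower in RPC (26.3% and 29% of all genes). Both lists were drawn up with earlier results of these data known.

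Methylation was measured near 35 members, in windows of 1000 bp to either side of the annotated start (21 members) or, where strand was not at hand, of the gene end with more measured CpGs (14 members). Of the 35 windows, 30 were under 10% in all groups, including those of Timp2, Timp3, Mmp14, Adamts1, Adamts5, Adam9 and Adam10, so the steep RNA differences of Timp3 and Adamts1 between Müller cells and progenitors came with start windows that were nearly unmethylated in both. At the Timp3 start (67 CpGs, chr10:86300412), methylation was 3.97%, 3.55% and 4.07% in young, 0.926%, 1.19% and 1.16% in NMDA, 0.776%, 0.782% and 0.447% in aged and 0.577%, 1.63% and 1.53% in RPC libraries. The same small offset of the young libraries was present across the genome: over 9567 windows under 10% the median was 3.5% in young, 0.741% in NMDA, 0.411% in aged and 1.36% in RPC, and over the 30 member windows 3.34%, 0.811%, 0.449% and 1.24%. Its cause was not tested. With no minimum difference 25, 29 and 27 of the 35 windows were lower than young in NMDA, aged and RPC, where 75.0%, 84.4% and 65.0% of all windows were. A call therefore needed a difference of at least 10 percentage points.

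By that rule 2 member windows were higher after NMDA and 0 lower (1.33% and 0.186% of all 10751 windows). The window at a gene end of Adamts4 (17 CpGs around chr1:171250129, 1074 to 3398 reads a library) was at 7.97%, 8.68% and 6.38% in young, 18.2%, 18.1% and 26.6% in NMDA, 5.60%, 6.85% and 5.94% in aged and 2.33%, 7.09% and 3.37% in RPC libraries (12.7 points, adjusted p = 0.00017). The window at a gene end of Adam11 (6 CpGs around chr11:102761413) was at 7.55%, 8.16% and 3.27% in young, 14.9%, 20.5% and 24.1% in NMDA, 11.1%, 13.6% and 7.67% in aged and 3.79%, 5.68% and 7.99% in RPC libraries (13.9 points, adjusted p = 0.00094). The NMDA libraries were above all others at both, and neither window was called at 500 bp to either side. In the NMDA libraries 23.6% to 31.6% of reads over all shared CpGs were methylated, against 10.6% to 18.1% in young; the part of this in the 2 windows was not tested. In aged cells 0 windows were higher and 0 lower (0.353% and 0.335% of all), by the quasi-binomial test, and with the same minimum difference also 0 and 0 at an unadjusted p under 0.05. The same counts of 0 held at an unadjusted p for lower windows after NMDA and higher windows in RPC. In RPC 0 were higher and 1 lower (2.18% and 0.949% of all): the window at a gene end of Mmp2 (12 CpGs around chr8:92827290) was at 6.16%, 10.6% and 28.4% in young, 17.2%, 18.8% and 26.2% in NMDA, 23.0%, 16.9% and 14.9% in aged and 0.177%, 1.55% and 0.118% in RPC libraries (-15.9 points, adjusted p = 0.001). RPC was below all Müller libraries at Mmp2, but the call was lost without young 3. Mmp2 RNA was higher in RPC than in aged cells but did not pass against young cells, the baseline of the methylation call. Mmp11, at its start, was the other window with intermediate levels, at 14.6% ± 2.48 (SD, n = 3) in young, 20.8% ± 4.77 in NMDA, 10.2% ± 2.66 in aged and 9.24% ± 0.519 in RPC, with no call. The Adam6b start was at 89.4%, 89.0%, 89.9% and 91% on average in young, NMDA, aged and RPC, and Adam6b had no RNA count in any library.

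Single CpGs in member genes followed the genome-wide shares. Of 2270 tested positions, 36 were higher and 20 lower after NMDA (1.99% and 1.02% of all positions), 4 higher and 86 lower in aged cells (0.44% and 3.56%), and 98 higher and 45 lower in RPC (4.78% and 2.68%). The NMDA counts were not stable: a replicate block gave 0 and 0, the 2 groups alone 21 and 4, and leaving out NMDA 1, 2 or 3 gave 17, 9 and 6 higher and 1, 0 and 2 lower. Without young 3 there were 44 higher and 52 lower, and without any 1 aged library 0 to 2 positions were higher and 40 to 58 lower in aged cells. Without RPC 1 or RPC 3 there were 23 and 18 lower in RPC, and without young 3 there were 7 higher in aged cells. The members with the most higher positions in RPC were Mmp2 (14 of 29, beside 5 lower), Adamts20 (11 of 135), Adamts17 (9 of 80), Adam12 (8 of 107) and Adam19 (8 of 20). Among these, Adamts20, Adam12 and Adam19 had more RNA in RPC than in either Müller baseline, and Adamts17 less. After NMDA, Adamts4 had 7 higher and 0 lower positions and Mmp11 5 higher and 1 lower.

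**Figure D5:**
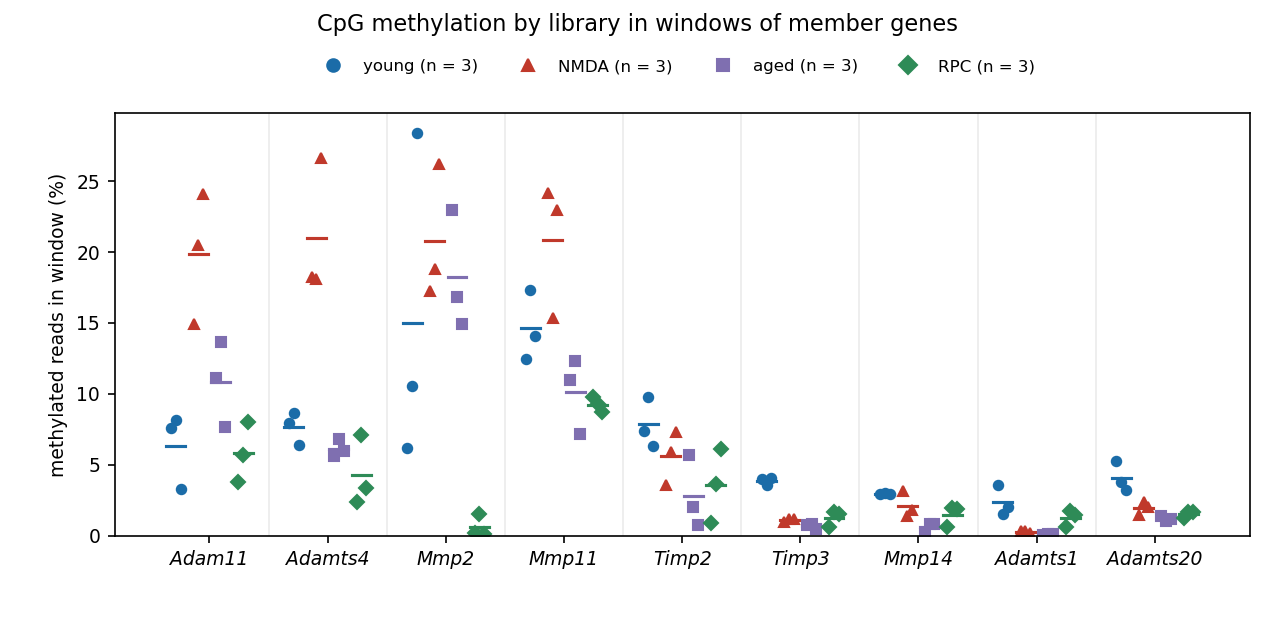
Percent of methylated reads in windows of 9 member genes in each of the 12 RRBS libraries (symbols) with group means (bars). The NMDA symbols are the highest at Adam11 and Adamts4, the RPC symbols lie near 0 at Mmp2, and the windows of Timp3, Mmp14, Adamts1 and Adamts20 are under 10% in all libraries.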

How the data were processed

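Expression was measured in 10 RNA-seq libraries and CpG methylation in 12 RRBS libraries of mouse Müller glia and retinal progenitors. The authors deposited raw counts per gene. For RRBS they deposited, per CpG position, the coverage and the percent of methylated and unmethylated reads, at a minimum of 10 reads. The submitters' processing notes name HISAT2 2.0.4, Trim Galore 0.4.3, Bismark 0.16.3, methylKit 1.4.0 and mm10, and the counting tool and its strand setting are not given in the sources used here. Members and gene lists were chosen with earlier results of these data known.

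Counts were tested with edgeR 4.0.16 in R 4.3.3 (quasi-likelihood test, TMM scaling, its default filter on low counts) in 1 fit of all 4 groups, with Benjamini-Hochberg adjustment over 18931 genes and a call at adjusted p under 0.05; errors of log2 changes are standard errors. Fitted folds against a group with 0 counts are not used as measurements: bounds use 3 counts over the pooled group, and ratios against 1 to 3 counts carry 95% intervals for counting error only. The bounds likewise allow for counting error only, and not for genes at 0 in only 1 of the young libraries. Methylated reads were tested with a quasi-binomial model per window and per position on autosomes, with a call at adjusted p under 0.05 and at least 10 percentage points. Both tests were tested on simulated data. Named members were a fixed set of 19 genes and, per comparison, up to 5 called members in each direction by size without overlap and with at least 1 CPM in a group; Adam4, Adam11, Adam12, Adam15 and Adamts6 were added after their values were seen. Regulators were named by adjusted p. Alternatives were upper-quartile scaling, other filters, DESeq2 1.42.0, a replicate block, 2 groups alone, each library left out, and other read, difference and window settings. Promoters came from RefSeq (GRCm38.p6).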

Additional observations from a re-analysis of the deposited data

How the results depend on the processing

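The alternatives left most counts of called members within 1.5 times the reported ones. Requiring at least 5 CPM in 2 libraries, which tests fewer genes, gave 7 higher members for NMDA and 8 each for aged cells and RPC against young, and 4 for NMDA against aged. Fitting 2 groups alone gave 4 lower members for NMDA against young (1337 of 17000 genes) and 14 higher for RPC against aged (6978 of 17718 genes). For aged against young it gave 0 higher and 0 lower (322 and 19 of 16662 genes). DESeq2 gave 11 higher for NMDA against aged (3004 of 21318 genes). Leaving out 1 library gave 9 to 17 lower members for NMDA against young (17 without young 2), 0 to 8 lower for aged against young, and 1 to 6 higher and 3 to 9 lower for NMDA against aged. Over the left-out libraries the log2 change of NMDA against young ran from -1.27 to 8.63 for Adamts9, from -4.17 to 5.76 for Adamts15 and from -0.61 to 0.86 for Adam15, and that of aged against young from -6.57 to 3.36 for Adamts15; the upper ends, of opposite sign to the reported changes, were the values without young replicate 1. For Adamts9 and Adamts15 that leaves 1 young library with 0 counts, so the sign follows from the 0 and the size is no measurement. Upper-quartile scaling moved the all-gene median of NMDA against young from 0.26 to 0.04 and the calls from 5795 higher and 2702 lower to 5094 and 3825. The causes were not tested.

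With no minimum difference, 25, 29 and 27 windows and 64, 371 and 148 positions were lower in NMDA, aged and RPC. At 25 points, 0 windows were higher in NMDA and 0 lower in RPC; 20 positions were higher and 0 lower in NMDA, 1 higher and 3 lower in aged, and 14 lower in RPC. At 20 reads 2 positions were higher in aged and 55 in RPC, and at 500 bp 0 windows were higher in NMDA. With 2 groups alone, 21 positions were higher and 4 lower in NMDA, 0 higher and 45 lower in aged, and 26 lower in RPC. Leaving out 1 library gave 6 to 44 higher and 0 to 52 lower positions in NMDA, 0 to 7 higher and 40 to 113 lower in aged, 18 to 57 lower in RPC, and 0 to 1 lower windows in RPC. Leaving out the positions of highest coverage, chosen after seeing the data, changed no count by over 1.5 times.

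Samples with the same replicate number did not deviate together in every pair, so the numbers do not pair them. The replicate block gave 1 lower member for aged against young and 3 higher for NMDA against aged, and for positions 0 higher and 0 lower in NMDA and 25 lower in RPC. Precision was limited by 2 young and 2 aged RNA libraries and by the low counts of most members.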
